A study of Mus musculus with 6 samples.

Results

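Heat shock proteins, J proteins and chaperonins are the machines that fold, refold and hold other proteins in the cytosol, mitochondria and endoplasmic reticulum (ER). Their levels were compared between mouse fetal gonadal soma and embryonic stem cells (ESC). Members were taken by gene name: symbols that start with Hsp90, Dnaja, Dnajb or Dnajc, numbered Hspa and Hspb genes, and Hspd1, Hspe1, Hsph1, Tcp1 and Cct2 to Cct8 with their copies. The rule used no measured value. Of 81 protein-coding genes that meet it, 79 had a probe, out of 19751 named genes on the array, and these 79 had 106 probes. Hspa1b and Dnajb5 were not analysed here.

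The soma group holds 3 arrays of somatic cells of the male genital ridge at E13.5 (embryonic day), from MCH x C57BL6/J embryos with the transgene labelled Oct5<delta>PE-GFP. The ESC group holds 3 arrays of the male line VR15, which carries a Vasa::RFP transgene and is 1 line, so differences between lines are not covered. Replicates are labelled as biological in both groups, without a statement on whether embryos were pooled. Each array received Cy3-labelled RNA made from 100 ng of total RNA. Both groups carry a fluorescent transgene, and the labels name no control without one.

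The share of gene probes that exceeded background clearly ran from 56.0% to 63.2% per array, with 0 saturated spots. All 7 ESC markers were higher in ESC, and all 6 Sertoli, 3 fetal Leydig and 4 interstitial markers that could be tested were higher in soma. The soma arrays also held 5 of 5 erythroid and 5 of 5 macrophage markers above the ESC level. Soma therefore stands for a mixture of cell types, and fewer cells of a type and less RNA per cell cannot be told apart. By slide, soma 1 and 2 stood together, and soma 3 lay beside the 3 ESC arrays. By scan there were 3 sets, which were soma 1 and 2, soma 3, and the ESC arrays. Scan and group therefore cannot be told apart, while below ESC is also compared with soma 3 alone, on the shared slide. Soma 3 differs from soma 1 and 2 in more than the slide. The median deviation of 6 germ cell markers from their soma mean was -0.56, 0.02 and 0.51 in soma 1 to 3. For the 7 ESC markers it was -0.33, 0.14 and 0.30. Slide and cell content cannot be told apart in that comparison.

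Hsp70 proteins, encoded by the Hspa genes, bind exposed hydrophobic stretches in a cycle of ATP hydrolysis. J proteins (Dnaja, Dnajb and Dnajc) deliver clients and trigger that hydrolysis, while nucleotide exchange factors, including the Hsp110 proteins, reset the cycle. Hsp90 proteins act later, on kinases and hormone receptors among others. Chaperonins are closed barrels: Hspd1 with its lid Hspe1 in mitochondria, and the CCT complex, which folds actin and tubulin, in the cytosol. Some members are always made and others are induced by heat through the factor HSF1, which binds repeats of the unit GAA. ER chaperones have their own response, which acts through the ER stress element.

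Levels below are log2 signals relative to the array's 75th percentile, listed as arrays 1, 2 and 3 of each group. They compare arrays for 1 probe, and levels of different genes have no common scale. Differences are ESC minus soma on the log2 scale with the SE of the limma fit over 19675 genes (n = 3 and 3), and a call is an adjusted p under 0.05 after Benjamini-Hochberg correction.

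Of the 79 members, 70 could be tested, since their probe was well above background on all arrays of at least 1 group. ESC had more RNA of 41 of these 70 members and less of 21, and 8 did not pass. The called share of 88.6% lies near the 85.0% of all genes tested that were called, so that being called sets the members little apart. By direction, 58.6% of the members were higher in ESC, against 46.6% of all genes, and 30.0% were lower, against 38.3%. A difference of at least 2-fold was found for 28 members upward, where 24.2% of all genes had one, and for 11 downward, where 23.2% had one. The groups did not overlap for 64 members (91.4%, against 87.2% of all genes). The median difference was 0.78 over the 70 members and 0.14 over all genes. Brightness goes with direction on these arrays: of the 4010 genes at least as bright as the dimmest CCT subunit, 70.3% were higher in ESC, with a median of 0.56.

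The choice of scaling shifts every gene. It moved the median of all genes by -0.12 with quantile normalization, 0.20 with scaling to the array median and -0.22 with the spike-in probes. Members higher and lower then numbered 35 and 25, 45 and 18, and 36 and 24. All genes higher and lower numbered 8361 and 8105, 10233 and 6535, and 7709 and 8545, so with the spike-in probes more genes were lower than higher, while more members were higher. Comparing ESC with soma 3 on the shared slide gave a member median of 0.66. With 1 soma array this comparison holds no spread between soma samples, so only its differences are read.

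**Figure D1:**
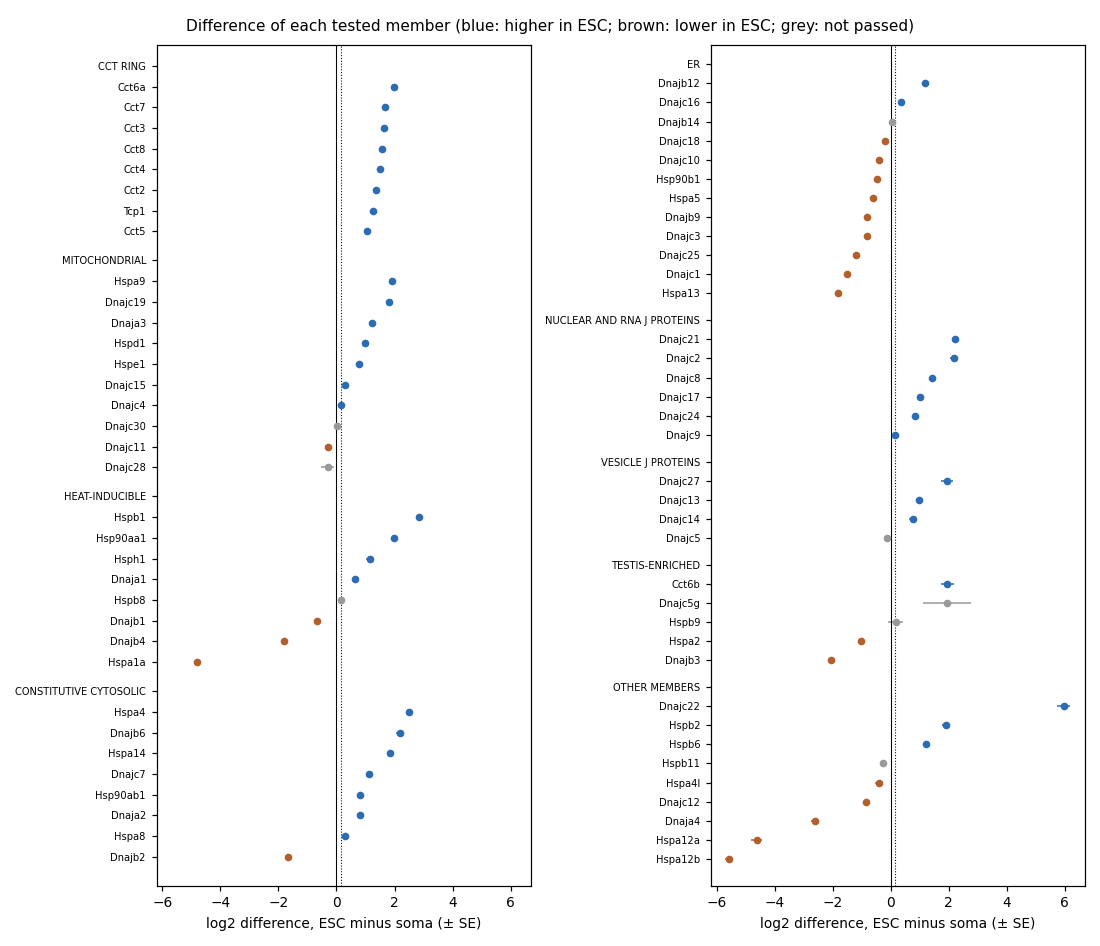
Log2 difference, ESC minus soma, of each tested member (points, with the SE of the limma fit as bars) by class, with equal levels at 0 and the median of all genes (0.14) as a dotted line; Hspa12a, Dnajc22 and Dnajc27, below background in 1 group, are drawn at their fitted values. All 8 CCT subunits lie between 1.04 and 1.98, most ER members lie below 0, and the inducible members run from -4.80 (Hspa1a) to 2.84 (Hspb1).

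The inducible members lay on both sides of 0. Of 8 tested genes that textbooks list as heat-induced, 4 were higher in ESC, 3 were lower and 1 did not pass, with a median of 0.38 (0.37 against soma 3 alone). Their shares of 50% higher and 37.5% lower lie near those of all genes (46.6% and 38.3%), so the split itself is no result about the list. Hspa1a, the stress-induced cytosolic Hsp70, had the largest drop of these in ESC, and Hspb1, the small heat shock protein Hsp27, the largest rise. The median turned to -0.18 when the probes of a gene were averaged.

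Hspa1a read 0.47, 0.82 and 0.70 in soma and -4.22, -4.11 and -4.08 in ESC. Every soma array lay far above every ESC array, and all 6 were above background. The difference of -4.80 ± 0.10 (adjusted p = 3.71e-07) is a 27.8-fold lower signal in ESC, and it was -3.57 with normexp background correction. The gene lies on chromosome 17 beside its near-identical copy Hspa1b. In their promoter windows 296 of 300 bases match, so the value is uncertain as a measure of Hspa1a alone.

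Genes of the handling response, which cell dissociation can switch on, were listed as a companion measure. Of 11 such genes 6 were lower in ESC and 4 higher, and their summed signal, in multiples of the 75th percentile, was 56.1 to 60.4 in soma and 22.8 to 23.8 in ESC. The brightest probes in that sum were those of Jun, Nr4a1 and Egr1. The largest differences were those of Fosb (-4.73), Fos (-3.34) and Jun (-2.96), immediate early transcription factors. The 4 genes higher in ESC were Ier3 (1.66), Gadd45b (1.13), Dusp1 (0.65) and Ier2 (0.44). The part of the handling response in the Hspa1a result was not tested.

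Hspb1 showed the opposite. Its levels were 3.80, 3.79 and 3.65 in soma and 6.66, 6.52 and 6.59 in ESC, a difference of 2.84 ± 0.07 (adjusted p = 4.77e-07), or 7.18-fold. Hsp90aa1, the inducible cytosolic Hsp90, read 4.66, 4.64 and 4.84 in soma and 6.77, 6.66 and 6.66 in ESC, 3.95-fold higher (1.98 ± 0.07, adjusted p = 1.96e-06). With quantile normalization these differences were 2.22 and 1.30. Both genes thus had more RNA in the cells in which Hspa1a had less.

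Hsph1, an inducible Hsp110 that acts as exchange factor, read 2.29, 1.96 and 2.41 in soma and 3.49, 3.29 and 3.33 in ESC (1.15 ± 0.13, adjusted p = 0.000274). Dnaja1, a cytosolic J protein, read 5.02, 4.96 and 5.09 in soma and 5.73, 5.58 and 5.63 in ESC, a difference of 0.62 ± 0.06 (adjusted p = 0.000161) that was -0.06 with quantile normalization. The direction for Dnaja1 also depends on the probe: its dimmer probe gave -1.64. Hspb8, a small heat shock protein of selective autophagy, read 0.08, 0.11 and 0.04 in soma and 0.14, 0.18 and 0.35 in ESC. Its groups did not overlap, yet the difference of 0.15 ± 0.07 did not pass (adjusted p = 0.10) and was -0.08 with spike-in scaling.

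Dnajb1, the main inducible J protein partner of cytosolic Hsp70, was lower in ESC. It read 4.56, 4.27 and 4.38 in soma and 3.77, 3.69 and 3.69 in ESC (-0.68 ± 0.09, adjusted p = 0.000455), and -1.21 with quantile normalization. Dnajb4, a relative of Dnajb1, read -1.76, -1.87 and -1.68 in soma and -3.39, -3.76 and -3.59 in ESC. That is a 3.51-fold lower signal (-1.81 ± 0.11, adjusted p = 1.38e-05), with -1.21 after normexp correction.

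HSF1 binding letters were looked for in RefSeq promoter windows of GRCm38.p6, which run from 250 bases before to 50 after the start and hold 64 of the 79 members. The search used both strands and looked for the units GAA and TTC in alternation, each parted from the next by any 2 bases. Runs of 3 units (starting with either unit) and of 2 units were counted, and each 3-unit match contains 2-unit ones. The 3-unit form was in 198 of all 32851 promoters (0.603%) and in 6 of 81 member promoters (7.41%), which belong to Hspd1, Hspe1, Dnajb6 and Hsph1. These 6 are not separate places. The matches of Dnajb6 and Hsph1 each fall in overlapping windows of the same gene, and Hspd1 and Hspe1 share a stretch. By gene, 4 of 64 members and 179 of all 27025 genes held the form. For the 2-unit form the shares were 15.1% of all promoters, 24.7% of member promoters and 58.3% of the 12 promoters of the inducible list. A match is only a run of letters, and no match says only that these letters are not in the window.

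The inducible genes below carry the 2-unit form and moved in different directions, which is why they are shown. Capitals mark the GAA and TTC units, and each run is written along the gene's strand.
Hspa1a (chr17:34972248-34972265, minus strand): tgctgGAAgaTTCctggc
Hspb1 (chr5:135887797-135887814, plus strand): caagaGAAgtTTCcagat
Hspb1, its other match (chr5:135887817-135887834, plus strand): gggcaGAAccTTCctggc
Dnaja1 (chr4:40722339-40722356, plus strand): ctctaGAAaaTTCtacga
Dnajb4 (chr3:152193847-152193864, minus strand): cgctgTTCtaGAAagtac
The match begins 104 bases before the start in Hspa1a, 117 and 97 in Hspb1, 124 in Dnaja1 and 14 in Dnajb4. Hspb1 and Dnaja1 were higher in ESC on their brightest probe, and Hspa1a and Dnajb4 were lower, so the same short motif stood before genes of both directions. The 250 bases before the Hspa1a start, at chr17:34972157-34972406 on the minus strand, are given for the largest inducible difference, with the units in capitals.
Hspa1a, upstream 250 bases: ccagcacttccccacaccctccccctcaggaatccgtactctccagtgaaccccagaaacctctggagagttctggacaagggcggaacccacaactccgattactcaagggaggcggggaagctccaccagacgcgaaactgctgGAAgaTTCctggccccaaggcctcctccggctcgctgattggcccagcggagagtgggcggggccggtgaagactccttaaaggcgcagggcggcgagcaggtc
Of these 250 bases, 247 are shared with Hspa1b.

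Constitutive cytosolic members were mostly higher in ESC on their brightest probe: 7 of 8 were called higher and 1, Dnajb2, lower. The median was 0.96 (0.91 against soma 3 alone). Of all genes 46.6% were higher, and of the 4010 bright genes described above 70.3%, with a median of 0.56. Not every constitutive member is that bright. The 7 include Hspa4, whose other probes were lower in ESC, and Hspa8, which quantile normalization called lower, so that the count there was 6 higher and 2 lower. Hspa8, the constitutive Hsp70, moved least. It read 6.32, 6.18 and 6.27 in soma and 6.64, 6.55 and 6.49 in ESC (0.30 ± 0.06, adjusted p = 0.00503), with no overlap. That direction was not held by the scaling, since quantile normalization gave -0.41 and spike-in scaling lost the call. Its other probes gave 1.09 and 0.80.

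Hsp90ab1, the constitutive Hsp90, read 7.07, 6.96 and 7.20 in soma and 7.90, 7.89 and 7.86 in ESC (0.81 ± 0.07, adjusted p = 8.27e-05), or 1.75-fold. Dnaja2, which works with Hspa8, read 2.10, 2.04 and 2.23 in soma and 3.02, 2.87 and 2.87 in ESC (0.80 ± 0.08, adjusted p = 0.000111). In both cases the lowest ESC array lay above the highest soma array. Hspa14, a ribosome-linked Hsp70, was 3.57-fold higher (1.84) and Dnajc7, a cochaperone of Hsp70 and Hsp90, 2.18-fold higher (1.12).

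Dnajb6, a J protein that keeps aggregation-prone proteins soluble, read 1.18, 1.31 and 0.95 in soma and 3.52, 3.25 and 3.21 in ESC. Its difference was 2.18 ± 0.13 (4.53-fold, adjusted p = 1.23e-05), and its 4 probes ran from 1.19 to 2.18. The exception, Dnajb2, a J protein known for its role in neurons, read 0.19, 0.05 and 0.08 in soma and -1.58, -1.60 and -1.54 in ESC. It was 3.20-fold lower in ESC (-1.68 ± 0.06, adjusted p = 1.46e-06), and both of its probes were lower.

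Hspa4, a constitutive Hsp110, gave results that depend on the probe. Its brightest probe read 3.68, 3.71 and 3.74 in soma and 6.28, 6.15 and 6.15 in ESC, 5.60-fold higher (2.48 ± 0.06, adjusted p = 4.5e-07). The other 2 probes, above background on all 6 arrays as well, were lower in ESC (-0.68 and -0.84). No direction for Hspa4 is therefore drawn.

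**Figure D2:**
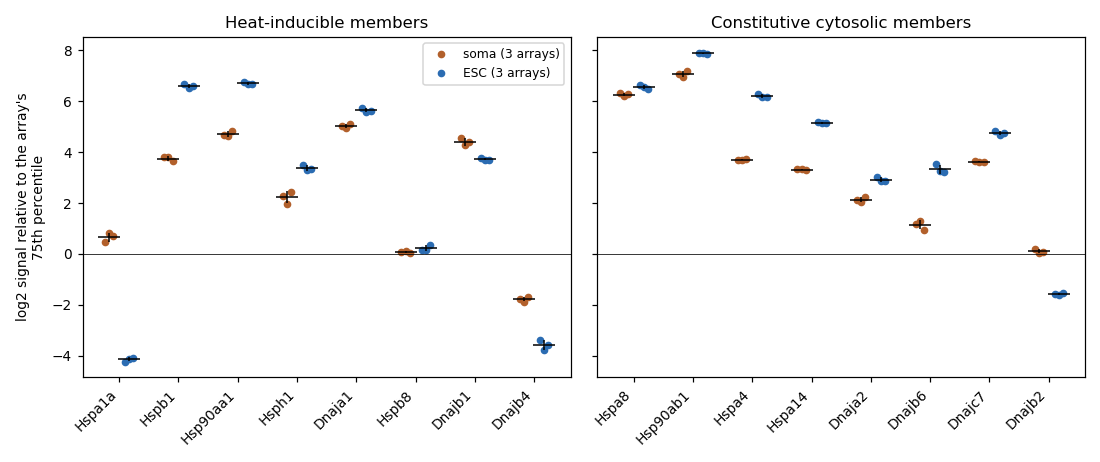
Log2 signal relative to the array's 75th percentile (vertical axis) of 8 heat-inducible and 8 constitutive members on each of the 3 soma and 3 ESC arrays, with the mean as a line and the SD as a bar. Hspa1a lies above 0 on all soma arrays and near -4 on all ESC arrays, while Hspb1 and Hsp90aa1 lie higher on the ESC arrays.

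Pairing an inducible member with its constitutive cognate on the same array gives a ratio that a single scaling factor per array cannot move. Quantile normalization and normexp are not such factors and can move it. The Hspa1a difference alone, for example, went from -4.80 to -3.57 with normexp. The level of such a ratio has no meaning across probes, and only its change between groups is read. The Hspa1a to Hspa8 log2 ratio was -5.85, -5.37 and -5.57 in soma and -10.86, -10.66 and -10.57 in ESC, a change of -5.10 ± 0.16. With the other Hspa8 probes the change was -5.89 and -5.60, so that this shift kept its direction with each Hspa8 probe.

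For Hsp90aa1 to Hsp90ab1 the ratio went the other way, from -2.41, -2.32 and -2.36 in soma to -1.13, -1.23 and -1.20 in ESC. The change of 1.18 ± 0.04 means that the inducible Hsp90 gained more in ESC than the constitutive one. The Dnaja1 to Dnaja2 ratio was 2.91, 2.93 and 2.86 in soma and 2.71, 2.71 and 2.76 in ESC, a change of -0.17 ± 0.03. It was -0.058 with the other Dnaja2 probe, and -2.44 or -2.32 with the other Dnaja1 probe. The Hsph1 to Hspa4 ratio fell from -1.39, -1.74 and -1.32 to -2.78, -2.87 and -2.82 with the brightest probes. It rose by 1.77 to 1.99 with the other Hspa4 probes, so this pair shows no direction. Groups did not overlap in any of the 4 pairs, and each two-sided exact permutation p was 0.1 (0.1 after adjustment over the 4 pairs), the smallest that 3 arrays against 3 allow.

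**Figure D3:**
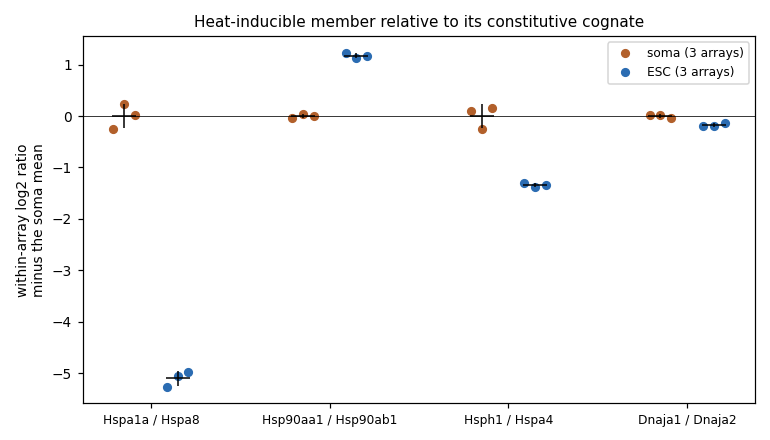
Within-array log2 ratio of each inducible member to its constitutive cognate, minus the mean of the soma arrays for that pair (vertical axis), for the 3 soma and 3 ESC arrays, with the mean as a horizontal line and the SD as a bar. The ESC arrays centre on -5.10 for Hspa1a to Hspa8 and on 1.18 for Hsp90aa1 to Hsp90ab1, and in the Hsph1 to Hspa4 pair the direction holds for the brightest Hspa4 probe only.

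In the wider Hsp70 family, 4 of 11 tested genes were higher in ESC on their brightest probe and 7 lower, with a median of -0.60. These shares were 36.4% and 63.6%, against 46.6% and 38.3% of all genes. The 4 include Hspa4, for which no direction is drawn, and Hspa8, whose sign quantile normalization turned (3 higher and 8 lower there). The largest difference was in Hspa12b, a distant Hsp70 relative known from endothelial cells. It read 1.37, 1.35 and 1.44 in soma and -4.42, -3.96 and -4.20 in ESC (-5.58 ± 0.12, adjusted p = 4.08e-07), a 47.9-fold lower signal, and -4.33 with normexp. Hspa12a, its closest relative, read -1.04, -1.14 and -1.04 in soma and was not well above background on any ESC array (-6.10, -5.35 and -5.61). Its signal was at least 16.6-fold lower in ESC, while normexp gave a difference of -2.38. The bound sets the soma mean against the dimmest signal above background on each ESC array, or the probe's own signal where that is higher.

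Endothelial markers did not share a direction. Cdh5 and Emcn, which define endothelium, were above background on all soma arrays and on no ESC array. Of the 5 endothelial markers 2 were higher in ESC, 2 lower and 1, Kdr, did not pass. Their summed signal was 4.59 to 6.53 in soma and 4.99 to 5.38 in ESC. Kdr was by far the brightest probe in that sum (1.65 to 2.30 in soma and 2.20 to 2.33 in ESC). The sum thus mostly reads Kdr and does not compare endothelial content. The part of these markers in the Hspa12b result was not tested. Hspa4l, an Hsp110 relative, was lower by less (-0.42), a call lost with scaling to the array median.

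Small heat shock proteins hold unfolding proteins without using ATP. They were taken by the Hspb name, and whether each gene so named is a small heat shock protein was not examined. Of 6 tested Hspb genes, 3 were higher in ESC and the other 3 short of the threshold. That share of 50% lies near the 46.6% of all genes, so the count is no result about the class. Besides Hspb1, those higher were Hspb2 (1.91) and Hspb6 (1.21), both best known from muscle. Muscle markers did not share a direction: 2 of 6 were higher in ESC and 3 lower. Their summed signals were 33.8 to 41.0 in soma and 25.4 to 42.2 in ESC. The brightest probes in those sums were those of Acta2 (-2.07) and Tagln (0.85), which differed in direction. Hspb8, Hspb9 and Hspb11 did not pass, with differences of 0.15, 0.17 and -0.25. Hspb11 passed as lower in several alternatives. Among them were quantile normalization (adjusted p = 0.011), spike-in scaling (0.012), normexp (0.017) and the fit without ESC 3 (0.0196).

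Hspb3 and Hspb7, known from heart and skeletal muscle, were not tested, as neither was well above background on all arrays of a group. The same held for Hspa1l, Dnajb7, Dnajb8, Dnajb11, Dnajb13, Dnajc5b and Dnajc6. These 9 genes have no difference here. Of the 70 tested, 66 were well above background on all 6 arrays, and Hspa12a, Dnajc22, Dnajc27 and Dnajc5g passed the filter through 1 group only. The filter itself fixed the direction of Hspa12a, Dnajc22 and Dnajc27, so their bounds are given as a description, without a p, although the counts above include them.

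J proteins formed the largest class, with 38 tested, 20 higher in ESC, 13 lower and 5 not passing. The shares of 52.6% higher and 34.2% lower lie near those of all genes (46.6% and 38.3%), so the split is no result about the class. Dnaja4, a relative of Dnaja1 that takes part in the heat response but was not on the inducible list, had the largest drop in ESC. It read -0.09, -0.22 and -0.24 in soma and -3.06, -2.62 and -2.70 in ESC, 6.11-fold lower (-2.61 ± 0.13, adjusted p = 5.67e-06). Dnajb3 read -0.11, -0.11 and 0.04 in soma and -2.29, -2.11 and -1.97 in ESC, 4.18-fold lower (-2.06 ± 0.10, adjusted p = 4.87e-06). Neither gene had an ESC array near any soma array. Dnajc12, a partner of the aromatic amino acid hydroxylases, was lower by less (-0.85).

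J proteins of the ribosome, splicing and the nucleus were the most uniform: all 6 were higher in ESC, with a median of 1.21. Among all genes 46.6% were higher. With quantile normalization 5 of the 6 were higher and 1 lower, and spike-in scaling left 5 called higher. Dnajc21, needed for ribosome maturation, read -0.92, -0.93 and -0.73 in soma and 1.47, 1.29 and 1.26 in ESC, 4.60-fold higher (2.20 ± 0.09, adjusted p = 2.75e-06). Dnajc2, which sits at the ribosome exit with Hspa14, read -0.30, -0.29 and 0.12 in soma and 2.18, 1.95 and 1.92 in ESC (2.17 ± 0.14, adjusted p = 1.9e-05). The splicing-linked Dnajc8 (1.42) and the diphthamide factor Dnajc24 (0.84) followed, with Dnajc17 between them. The histone chaperone Dnajc9 was higher by only 0.13, a direction that quantile normalization (-0.34) and spike-in scaling (-0.09) reversed. Its call was also lost without soma 1 (adjusted p = 0.112), soma 2 (0.097), ESC 1 (0.053), ESC 2 (0.0644) or ESC 3 (0.106).

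Dnajc13, an endosomal J protein, was higher in ESC by 0.98. Dnajc14, drawn with the vesicle J proteins although its place in the cell was not examined, was higher by 0.76 on its kept probe. Its other probe, well above background on 2 soma arrays and on no ESC array, gave -1.64. Dnajc27 was not well above background on any soma array (-6.52, -5.87 and -5.80) and read -4.07, -4.19 and -4.10 in ESC, at least 2.24-fold higher, with a difference of 0.76 after normexp. Dnajc22 stood further out. It was not well above background on any soma array (-6.67, -7.57 and -7.20) and read -1.22, -1.19 and -1.12 in ESC, at least 17.2-fold higher, while normexp correction gave a difference of 2.80. Dnajc5, a synaptic vesicle protein, did not pass on its brightest probe (-0.12, adjusted p = 0.232), but its other probes gave 1.91 and 1.90.

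Testis-linked members showed no common direction, with 5 of 9 tested, 1 higher in ESC, 2 lower and 2 not passing. Cct6b, a copy of the CCT subunit Cct6a made in testis, read -4.48, -4.01 and -4.61 in soma and -2.54, -2.06 and -2.66 in ESC (1.95 ± 0.22, adjusted p = 0.000268). Normexp gave 1.21. Hspa2, a spermatocyte Hsp70, was lower in ESC (-1.01). Hspb9 read -3.18, -2.94 and -2.20 in soma and -2.58, -2.69 and -2.54 in ESC, so that soma 3 lay above every ESC array and soma 1 and 2 below. Without soma 3 its difference was 0.46 and passed (adjusted p = 0.00869), while against soma 3 alone it was -0.40, so no direction is drawn. The summed signal of 6 germ cell markers was 3.79, 4.94 and 7.13 in soma 1 to 3 and 6.29 to 6.86 in ESC. Dnd1 and Mael, the brightest of these probes in ESC, were higher there (0.86 and 1.42). Dazl was lower (-2.06), Nanos2 was well above background on no ESC array, and Ddx4 and Nanos3 did not pass. The sum therefore does not compare germ cell content. The part of these markers in the testis-linked results was not tested. Dnajc5g, above background on 1 soma array, read -6.93, -3.74 and -5.72 in soma and -2.92, -3.67 and -4.00 in ESC. It passed only without soma 2 among the left-out arrays (difference 2.80, adjusted p = 0.00393).

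Mitochondrial members were mostly higher in ESC: 7 of 10 rose, 1 fell and 2 did not pass, with a median of 0.55 (0.48 against soma 3 alone). Of all genes 46.6% were higher, and of the 4010 bright genes described above 70.3%, with a median of 0.56. The count and median thus do not set the group apart from bright genes, though not every member is that bright. With quantile normalization 4 mitochondrial members were higher. Hspa9, the mitochondrial Hsp70 that pulls proteins through the import channel, was 3.75-fold higher (1.91 ± 0.05). Dnajc19, a J protein of the import motor, was 3.50-fold higher (1.81 ± 0.06), and Dnaja3, the matrix J protein, 2.34-fold (1.23 ± 0.06). The chaperonin Hspd1 was higher by 0.97 and its lid Hspe1 by 0.79, values that quantile normalization cut to 0.25 and 0.08, the latter without a call.

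Hspd1 and Hspe1 lie head to head and share the stretch between their starts. The only 3-unit heat shock matches of mitochondrial members lie there, read from opposite strands, and begin 89 bases before the Hspe1 start and 144 before an Hspd1 start. They are shown with those of Dnajb6 and Hsph1, the other 3-unit matches, with units in capitals.
Hspe1 (chr1:55088054-55088081, plus strand): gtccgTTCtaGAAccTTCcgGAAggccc
Hspd1 (chr1:55088054-55088081, minus strand): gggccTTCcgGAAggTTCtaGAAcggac
Dnajb6 (chr5:29735847-29735869, plus strand): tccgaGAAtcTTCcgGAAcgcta
Hsph1 (chr5:149636283-149636305, minus strand): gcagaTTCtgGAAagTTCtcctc
The Dnajb6 match begins 46 or 127 bases before its annotated starts, and the Hsph1 match 15 or 36 bases after its own. All 4 genes were higher in ESC (0.79 to 2.18) and kept that sign under each scaling run, Hspe1 without a call under quantile normalization.

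Dnajc15 and Dnajc4 were higher by 0.31 and 0.14, directions that turned with quantile normalization (-0.10) and spike-in scaling (-0.08). The Dnajc4 call was lost without each array in turn except ESC 1, with adjusted p from 0.0636 without ESC 2 to 0.121 without ESC 3. Dnajc11, an inner-membrane organiser, was the only one lower (-0.28), and its other probe gave 1.44. Dnajc28 (-0.31) and Dnajc30 (0.03) did not pass. Of 7 partner genes of mitochondrial folding, 6 were higher in ESC (85.7%, against 46.6% of all genes), with a median of 1.21. They include the Hspa9 exchange factors Grpel1 (1.71) and Grpel2 (1.21), the mitochondrial Hsp90 Trap1 (1.39) and the protease subunit Clpp (1.60).

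The ER members went the other way. Of 12 tested, 9 were lower in ESC, 2 were higher and 1 did not pass, with a median of -0.54 (-0.64 against soma 3 alone). The shares were 75% lower and 16.7% higher, against 38.3% and 46.6% of all genes. Dnajc14 (0.76) was listed with the vesicle J proteins and is not counted here. Hspa13, an Hsp70 of the ER, read 1.50, 1.49 and 1.51 in soma and -0.31, -0.32 and -0.37 in ESC, 3.57-fold lower (-1.83 ± 0.05, adjusted p = 5.62e-07). Dnajc1, which ties the ER Hsp70 to the translocon, read 1.08, 1.04 and 1.19 in soma and -0.42, -0.32 and -0.44 in ESC, 2.82-fold lower (-1.50 ± 0.06, adjusted p = 3.64e-06). In both genes the arrays of a group lay close together and far from the other group.

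Hspa5 (BiP), the central ER Hsp70, read 5.67, 5.52 and 5.72 in soma and 5.09, 4.98 and 5.03 in ESC (-0.60 ± 0.07, adjusted p = 0.000279). Hsp90b1 (GRP94), the ER Hsp90, read 5.63, 5.65 and 5.83 in soma and 5.32, 5.20 and 5.19 in ESC (-0.47 ± 0.07, adjusted p = 0.00135). These moderate differences grew to -1.28 and -1.15 with quantile normalization. Dnajc3, an inhibitor of the kinases that slow translation under ER stress, was lower (-0.81), and so were Dnajb9, a J protein of Hspa5 (-0.80, its other probe -0.0067), Dnajc25 (-1.21) and the disulfide reductase Dnajc10 (-0.40). Dnajb12, a membrane J protein that takes part in ER protein degradation, was higher in ESC (1.17), as was Dnajc16 (0.34). Dnajc18 was lower (-0.19), a sign that scaling to the array median turned (0.01) and a call lost without a filter on dim probes (adjusted p = 0.0512). Dnajb14 did not pass (0.04).

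The ER stress element, searched on both strands as CCAAT, any 9 bases and CCACG, was in 39 of all 32851 promoter windows (0.119%) and in 3 of 81 member promoters (3.70%). These belong to Hspa5, Hsp90b1 and Dnajc3, which are shown because all 3 had less RNA in ESC under each of the scalings run. Capitals mark the fixed ends of the motif.
Hspa5 (chr2:34772020-34772048, plus strand): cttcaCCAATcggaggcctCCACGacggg
Hsp90b1 (chr10:86705633-86705661, minus strand): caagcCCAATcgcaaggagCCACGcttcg
Hsp90b1, its other match in reverse (chr10:86705528-86705556, minus strand): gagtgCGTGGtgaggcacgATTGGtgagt
Dnajc3 (chr14:118937822-118937850, plus strand): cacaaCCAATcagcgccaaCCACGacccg
The matches begin 65 bases before the start in Hspa5, 212 for the first shown in Hsp90b1 and 105 in Dnajc3. The 250 bases before the Hspa5 start, at chr2:34771840-34772089 on the plus strand, are given with that match in capitals.
Hspa5, upstream 250 bases: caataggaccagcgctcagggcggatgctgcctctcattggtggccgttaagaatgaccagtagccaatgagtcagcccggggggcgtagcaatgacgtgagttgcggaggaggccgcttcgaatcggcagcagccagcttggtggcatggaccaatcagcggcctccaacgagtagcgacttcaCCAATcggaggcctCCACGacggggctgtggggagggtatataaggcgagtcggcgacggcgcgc
Among ER partner genes the element was in the windows of the lectin chaperones Calr (-0.73) and Canx (0.46) and the disulfide isomerase Pdia6 (-0.24). Canx was thus higher in ESC although its window holds the element, a direction that quantile normalization turned.

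ER partners as a whole were mixed, with 5 of 12 higher in ESC, 7 lower and a median of -0.32. Among all genes 46.6% were higher and 38.3% lower. Serpinh1, the collagen chaperone, had the largest difference (-2.65 ± 0.14). Xbp1, a transcription factor of the ER stress response, was lower (-0.89), and so was Pdia4, a disulfide isomerase (-0.66). Atf4 (1.06) and Ddit3 (0.85), transcription factors of the stress-linked slowing of translation, were higher in ESC, as were the Hspa5 cochaperone Sdf2l1 (0.98) and the Hsp70 relative Hyou1 (0.57). Genes of ER stress thus lay on both sides.

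The CCT ring was the most uniform group. All 8 subunits were at least 2-fold higher in ESC, with a median of 1.53 (1.47 against soma 3 alone), while 26.4% of the 4010 genes at least as bright as their dimmest subunit rose by that much. Cct6a had the largest difference: it read 1.06, 1.10 and 1.35 in soma and 3.20, 3.12 and 3.14 in ESC, 3.95-fold higher (1.98 ± 0.09, adjusted p = 4.23e-06). Cct5 had the smallest, with 5.21, 5.18 and 5.28 in soma and 6.31, 6.23 and 6.27 in ESC (1.04 ± 0.05, adjusted p = 6.38e-06). The others lay between them: Tcp1 at 1.27, Cct2 at 1.36, Cct4 at 1.50, Cct8 at 1.57, Cct3 at 1.65 and Cct7 at 1.69.

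All 8 subunits kept their direction and call in every alternative run. Their size was less firm, since with quantile normalization the median was 1.03 and Cct5 had 0.33. Prefoldin, which hands unfolded actin and tubulin to CCT, was mostly higher in ESC too. Of 8 genes of prefoldin and its phosducin-like helpers, 7 were higher (87.5%), with a median of 1.02. Among all genes 46.6% were higher, and among the 4010 bright genes 70.3%, though not every prefoldin gene is that bright. Pfdn6 (1.74), Vbp1 (1.65) and Pfdn2 (1.32) had the largest differences. Pfdn5, a subunit also known as a partner of Myc, was lower (-0.65 ± 0.06).

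Cochaperones of cytosolic Hsp70 and Hsp90 were higher in ESC for 15 of 21 genes, lower for 4 and not called for 2, with a median of 0.54. The 71.4% higher lies above the 46.6% of all genes and near the 70.3% of the 4010 bright genes, whose median was 0.56. Stip1, which joins Hsp70 to Hsp90, was higher by 1.85, the Hsp90 cochaperone Ptges3 by 1.77, the immunophilin Fkbp4 by 1.93, the Hsp70-binding St13 by 1.78 and Cdc37l1 by 2.24. Among those lower in ESC were Bag3 (-0.68), the exchange factor of selective autophagy, Bag5 (-0.68) and Fkbp5 (-0.20). The exchange factors of the Bag family thus differed in direction, with Bag4 at 1.19.

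RNA of the heat shock factors differed little. Hsf1 had a difference of -0.12 that did not pass (adjusted p = 0.0512), Hsf2 was higher by 0.59 ± 0.06, and Hsbp1, which binds HSF1, was lower (-0.19). The signs for Hsf1 and Hsbp1 turned with scaling to the array median. Hsf4 was not tested. RNA levels say nothing of the activity of these factors.

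Where a member had several probes above background they could be set against each other. This held for 17 members, and in 13 the probes had the same sign. Opposite signs occurred in Hspa4, Dnaja1, Dnajc11 and Dnajc5, of which each had its brightest probe against 1 or 2 dimmer ones. For 59 of the 79 members there was only 1 probe, so that no such comparison could be made, and whether a probe separates a gene from close copies or pseudogenes was not tested.

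**Figure D4:**
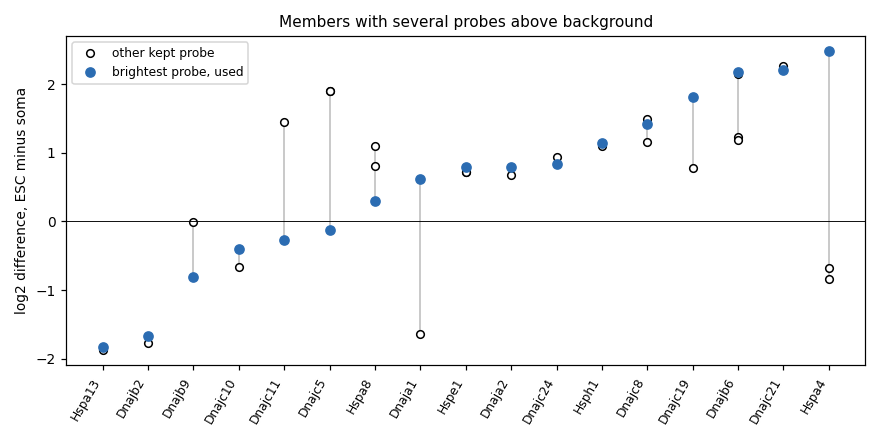
Log2 difference, ESC minus soma, of each kept probe for the 17 members with several probes above background, with the brightest probe filled and the others open. In 13 genes all points lie on the same side of 0, and in Hspa4, Dnaja1, Dnajc11 and Dnajc5 they lie on both sides.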

How the data were processed

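The deposited processed signal is an intensity from Agilent's Feature Extraction 10.7.3.1, which per the file headers is background-subtracted and detrended within each array. The deposited series matrix holds log2 values, centred per probe, and served as an alternative; each value lay within 0.01 of that calculation from the scanner files, and the column medians were 0.055, -0.25 and -0.0654 for soma and 0.161, -0.0879 and 0.0634 for ESC. For this report the log2 intensity was scaled to each array's 75th percentile (1245 to 1388 in soma, 959 to 1016 in ESC), spots of a probe were averaged, and outlier-marked spots and 1377 control spots per array were left out. Probes were named through RefSeq transcripts of GRCm38.p6 (66.1% of 39429 named). A gene was its brightest kept probe. Differences were fitted with limma 3.58.1 in R 4.3.3 (two-sided, Benjamini-Hochberg over 19675 genes, 14208 of them with a symbol) and tested on simulated data. The number of arrays, 3 per group, limits the precision.

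Members and lists were chosen with earlier results of these data known. Values per array are given for the inducible list, the cognates of the pairs, the 8 largest differences each way, members below background in 1 group, and the CCT extremes. Hspa5, Hsp90b1, Hspb9 and Dnajc5g were added after their values were seen, as were the handling-response genes named. Other genes are given by their difference only. Alternatives covered scaling, normexp background (offset 50), dim-probe filters, the mean of probes, the series matrix, variance trend, slide, scan and replicate number as blocks, and each array left out. Values of 1 cochaperone gene are not reported here.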

Additional observations from a re-analysis of the deposited data

How the results depend on the processing

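Of the 70 tested members, 52 kept their direction and side of the threshold in each of the 19 alternatives, and 13 reversed in at least 1, 7 of them called. Counts of members stayed between 35 and 45 higher and 18 and 25 lower. The medians of all members, the inducible, cognate, mitochondrial, ER and CCT groups were 0.30, 0.039, 0.55, 0.073, -0.78 and 1.03 with quantile normalization, 0.97, 0.58, 1.16, 0.74, -0.34 and 1.73 with scaling to the array median, and 0.55, 0.16, 0.74, 0.32, -0.76 and 1.31 with the spike-in probes. With the slide as a block, or the shared slide alone, all members had 0.66, cognate 0.91, mitochondrial 0.48, ER -0.64 and CCT 1.47. With the mean of a gene's probes, all members had 0.74, inducible -0.18, cognate 0.77 and mitochondrial 0.66, while Dnaja1 turned to -0.51, Dnajc11 to 0.58, Dnajc5 to 1.23 and the Hsph1 to Hspa4 ratio to 0.80. Without a filter on dim probes the medians were 0.56 for all members and -0.47 for ER, with normexp 0.69 for all, and with probes above background on all 6 arrays 0.69. Quantile normalization reversed Dnaja1 (-0.064), Dnajb14 (-0.069), Dnajc15 (-0.095), Dnajc30 (-0.12), Dnajc9 (-0.34) and Hspa8 (-0.41). Scaling to the spike-in probes reversed Dnajb14 (-0.18), Dnajc30 (-0.19), Dnajc4 (-0.080), Dnajc9 (-0.092), Hspb8 (-0.076) and Hspb9 (-0.052), and scaling to the array median Dnajc18 (0.0095) and Dnajc5 (0.077). Normexp reversed Dnajc28 (0.0024) and Dnajc30 (-0.0051). The slide as a block, and the shared slide alone, reversed Dnajb14 (-0.021), Dnajc28 (0.036), Dnajc30 (-0.047) and Hspb9 (-0.40). The cause was not tested beyond what each setting changes. Leaving out 1 array at a time gave medians of 0.72 to 0.79 for all members, 0.52 to 0.58 for mitochondrial and -0.58 to -0.48 for ER, and differences of -0.010 to 0.073 for Dnajc30 and -0.034 to 0.46 for Hspb9. The 2-unit motif raised the share of member promoters from 7.41% to 24.7%. The replicate numbers did not pair the samples (correlations of same-numbered deviations of -0.05, 0.07 and 0.03). With the replicate block 39 members were higher and 23 lower: Dnajc4 and Dnajc9 lost their calls, and Dnajc28 and Hspb11 gained one.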
